A study of Mus musculus with 6 samples.

Results

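Homologous recombination and the Fanconi anaemia pathway are represented here by 34 genes, taken by symbol from a list of their known components and all found among the 24906 genes of the deposited table. Transcripts were measured by RNA sequencing of spleen cells from C57BL/6J mice aged 12 to 16 months, with 1 library per mouse. In the 3 mice of the D3TA group, a knock-in made with CRISPR/Cas9 replaces threonine 283 of cyclin D3 with alanine (T283A). The D3TA line was kept heterozygous, and the series record places mice of this age at a stage with severe symptoms of myeloproliferative neoplasm. The WT group held 3 age-matched wild-type mice. The knock-in is not limited to a tissue in the labels, and no sort of the spleen cells is described. In such bulk samples, fewer cells of a type and less RNA per cell cannot be told apart in these data.

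Homologous recombination copies an intact sister chromatid to repair a broken DNA end, and it works mainly in cells that are copying or have copied their DNA. The broken end is first trimmed to a single-stranded tail, the tail then invades the intact chromatid with the help of BRCA2 and other mediators, and the joined molecules are finally separated by helicases and nucleases. The Fanconi pathway acts on crosslinks between the DNA strands: a core complex attaches ubiquitin to the FANCD2-FANCI pair, which brings in nucleases and hands the break to recombination. Inherited loss of the Fanconi pathway in people leads to bone marrow failure.

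The libraries held between 14944622 and 19456838 reads assigned to genes, at which depth 3 reads equal 2.59 to 3.36 normalized counts. All values below are normalized counts, the reads of a gene divided by a size factor for the library, and those of a group are listed in the order of mouse number, 1 to 3. The share of hemoglobin reads was over 5% in D3TA-1, D3TA-2 and WT-3 and between 1.40% and 1.91% in D3TA-3, WT-1 and WT-2. Y-linked transcripts were carried by D3TA-3 and WT-1. WT-2 stood apart from the other libraries: it listed 8449 genes at 0, where the others listed 3193 to 5170. B cell (Ms4a1), T cell (Cd3e) and plasma cell (Jchain) markers were detected in each of the 6 libraries, as the label of spleen cells implies.

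Most of the 34 repair genes had more transcripts in D3TA spleens, with large differences among them. The log2 difference is that of D3TA from WT, computed on log2(normalized count + 1). It was above 0 for 32 of the 34, where 54.5% of the 15564 genes tested lay above 0. Its median over the 34 genes was 0.89, a 1.86-fold higher level, and its median over all genes tested was 0.06. For 15 of the 34 genes each D3TA library lay above each WT library, where the same held for 8.18% of genes tested. For 1 gene, Rad51d, each D3TA library lay below each WT library, where 6.84% of genes tested did so. A log2 difference over 1 was seen for 14 of the 34 genes and for 12.2% of genes tested.

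Gene by gene, none of these differences passed the transcriptome-wide threshold. With limma and Benjamini-Hochberg adjustment over 15564 genes, 0 of the 34 members and 0 genes in all (0.00%) passed an adjusted p of 0.05, and among the members Rad54b came nearest, at 0.240. At an unadjusted p under 0.05, 15 of the 34 members were higher in D3TA and 0 were lower, against 6.08% and 3.83% of genes tested. All 34 passed the filter on low values. Of the other tests on recovered reads, edgeR's quasi-likelihood test and limma-voom called 0 members and 0 genes in all. At an unadjusted p under 0.05 they had 16 and 15 members, against 1611 and 1406 of 15564 genes. DESeq2 called 7 members at an adjusted p under 0.05, all higher in D3TA, against 1.83% of 18588 genes called higher. These were Brca1, Brca2, Brip1, Fancd2, Rad51ap1, Rad54b and Rad54l. Without D3TA-3, limma called 5 members as higher (Brca1, Brca2, Rad51ap1, Rad54b and Rad54l), against 1.59% of genes tested. Terms for a hemoglobin share over 5% and for Y-linked reads were each entered as yes or no per library. They gave 0 called members each, against 0.0643% and 0.0835% of genes called higher.

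**Figure D1:**
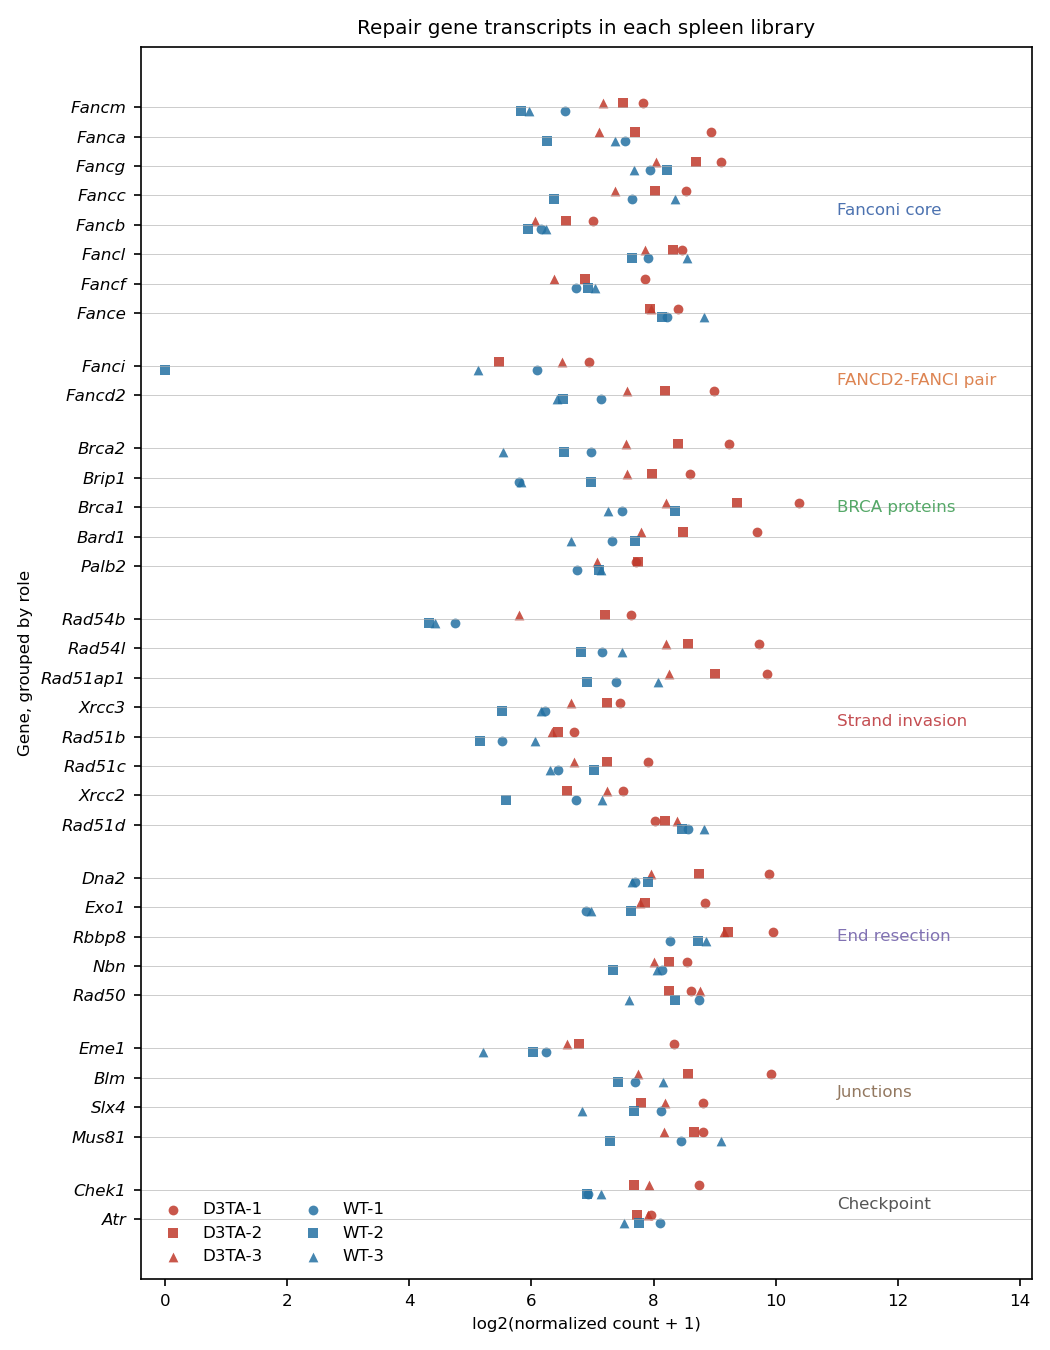
Normalized counts of the 34 repair genes on the log2(normalized count + 1) scale, 1 point per library, D3TA in red above and WT in blue below each line, with genes grouped by role. The 3 D3TA points of Brca2, Rad54b, Rad54l, Brip1 and Fancd2 lie to the right of the 3 WT points, while those of Atr and Mus81 lie among them; Fanci was at 0 in WT-2.

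The order of the D3TA mice was the same for most members. D3TA-1 held the highest of the 6 values for 27 of the 34 genes, against 26.9% of genes tested. For 25 genes the D3TA values descended from D3TA-1 through D3TA-2 to D3TA-3, against 25.7% of genes tested. Relative to the WT mean of each gene, the members' median was 1.41 higher in D3TA-1, 0.72 higher in D3TA-2 and 0.52 higher in D3TA-3 on the log2 scale, where the median over all genes tested was 0.07, 0.05 and 0.06. In D3TA-3, the least displaced of the 3, 19 members still lay above the highest WT library and 3 below the lowest, against 23.8% and 19.8% of genes tested. The members' median difference was 1.09 within the 3 libraries over 5% hemoglobin and 0.30 within the other 3, and each value rests on 1 library for one of the groups. Within the libraries with Y-linked reads it was 0.34, again with 1 library a group, and within those without them it was 1.04. The part of hemoglobin share and of Y-linked reads, both read from the values, in the differences of single genes was not tested beyond these medians and the terms above. Without D3TA-1 the median over the members was 0.51, and 8 members had an unadjusted p under 0.05, against 767 of 15564 genes. Without both D3TA-1 and WT-2, 6 members had such a p, against 706 genes.

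Of the 5 BRCA proteins, which prepare the broken end for strand invasion, 3 had each D3TA library above each WT library, against 8.18% of genes tested, and the median log2 difference was 1.62. Brca2 (ENSMUSG00000041147, chromosome 5, 150522630 to 150570329, GRCm38), a mediator of strand invasion, was at 603, 338 and 186 in D3TA and at 124, 91.8 and 45.4 in WT. The lowest D3TA library was thus above the highest WT library. Its log2 difference was 2.05 ± 0.53 (SE), a 4.14-fold higher level, with a limma adjusted p of 0.246. Brip1 (ENSMUSG00000034329, chromosome 11, 86058138 to 86201193), the helicase partner of BRCA1 also known as FANCJ, was at 385, 249 and 189 in D3TA and at 54.4, 125 and 56.1 in WT. The groups did not overlap, and the log2 difference was 1.84 ± 0.47 (SE), a 3.58-fold higher level, with an adjusted p of 0.246.

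The promoters of Brca2 and Brip1 are shown because these genes combined non-overlapping groups with large differences. Each sequence runs 5′ to 3′ on the gene's strand from 250 bases before to 50 bases after a RefSeq start (build GRCm38.p6), and capitals mark matches to short motifs searched on both strands. For Brca2 (chr5:150522371-150522670, plus strand) the capitals are a match to an E2F word, and for Brip1 (chr11:86201144-86201443, minus strand) they are 3 matches to CCAAT, all on the opposite strand.
Brca2: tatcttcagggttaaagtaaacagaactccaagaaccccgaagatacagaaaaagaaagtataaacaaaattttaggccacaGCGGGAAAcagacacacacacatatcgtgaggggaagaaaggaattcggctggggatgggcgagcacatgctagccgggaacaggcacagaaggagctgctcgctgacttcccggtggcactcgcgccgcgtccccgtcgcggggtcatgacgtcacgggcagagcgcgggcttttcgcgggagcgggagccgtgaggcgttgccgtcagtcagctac
Brip1: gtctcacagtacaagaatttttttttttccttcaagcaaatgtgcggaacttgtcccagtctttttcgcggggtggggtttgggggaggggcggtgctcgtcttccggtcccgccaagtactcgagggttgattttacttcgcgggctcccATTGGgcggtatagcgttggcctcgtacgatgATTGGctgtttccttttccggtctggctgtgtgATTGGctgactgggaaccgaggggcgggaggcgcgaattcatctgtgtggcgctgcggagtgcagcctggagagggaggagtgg
The E2F match of Brca2 begins 168 bases upstream of the start. The CCAAT matches of Brip1 begin 99, 67 and 34 bases upstream.

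Brca1 and Bard1 encode the partner subunits of a ubiquitin ligase that promotes end resection. Bard1 (ENSMUSG00000026196) was at 827, 357 and 221 in D3TA and at 159, 206 and 99.5 in WT, and the groups did not overlap. Brca1 (ENSMUSG00000017146) was at 1329, 662 and 294 in D3TA and at 179, 326 and 152 in WT. Here D3TA-3 lay below WT-2, so the groups overlapped at that point, although the log2 difference of 1.62 ± 0.53 (SE) was larger than that of Bard1 (1.44 ± 0.50). Palb2, which bridges BRCA1 and BRCA2, overlapped between the groups: its D3TA mean was 186 ± 44.8 and its WT mean 127 ± 18.4 (SD, n = 3 each), with a log2 difference of 0.52 and an adjusted p of 0.695. Whether Palb2 differed less than its partners was not tested.

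Among genes of strand invasion, the motor and accessory proteins had log2 differences of 1.58 to 2.38, and the paralog group (Rad51b, Rad51c, Rad51d, Xrcc2 and Xrcc3) lay below them. Rad54b (ENSMUSG00000078773, chromosome 4, 11558922 to 11615805) and Rad54l (ENSMUSG00000028702, chromosome 4, 116094264 to 116123690) encode related motor proteins that move along DNA and drive strand exchange. Rad54b was at 198, 146 and 54.5 in D3TA and at 25.8, 19.0 and 20.3 in WT, a 5.22-fold higher level with a log2 difference of 2.38 ± 0.60 (SE). This value is uncertain, since 35.9% of the exonic bases of Rad54b are shared with Fsbp, on the same strand, and Gm11832, on the opposite one. Rad54l was at 846, 377 and 295 in D3TA and at 142, 112 and 178 in WT, a 3.20-fold higher level with a log2 difference of 1.68 ± 0.43 (SE) and an adjusted p of 0.247. Neither gene's groups overlapped, and Rad54l shares 15.4% of its exonic bases with Lrrc41.

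The promoter of Rad54l (chr4:116123641-116123940, minus strand, build GRCm38.p6) is given for comparison with those of Brca2 and Brip1. The capitals mark a CCAAT match that begins 50 bases upstream of the start.
Rad54l: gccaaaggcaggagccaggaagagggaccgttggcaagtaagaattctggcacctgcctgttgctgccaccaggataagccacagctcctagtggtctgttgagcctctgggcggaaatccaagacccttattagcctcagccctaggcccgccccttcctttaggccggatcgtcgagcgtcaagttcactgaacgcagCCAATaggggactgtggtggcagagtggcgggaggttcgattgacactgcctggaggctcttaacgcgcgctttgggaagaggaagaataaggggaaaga
RefSeq lists a second start of Rad54l 1 base away, which holds the same match.

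Rad51ap1 (ENSMUSG00000030346), whose product stimulates strand joining, was at 929.7, 515 and 305 in D3TA and at 166, 119.8 and 269.6 in WT. The groups did not overlap and its log2 difference was 1.58 ± 0.46 (SE), and limma gave 0.304 as the adjusted p. Among the 5 genes of the paralog group, whose products form complexes that assist strand invasion, the log2 differences ranged from -0.42 to 1.15. Xrcc3 was at 174, 150.5 and 99.4 in D3TA and at 73.6, 44.8 and 70.6 in WT, and its groups did not overlap. Rad51b also did not overlap, at 79.5 to 103 in D3TA and 34.7 to 65.7 in WT, with a log2 difference of 0.91 and an unadjusted limma p of 0.0867. Rad51c averaged 164 ± 69.7 and 97.3 ± 27.4, and Xrcc2 142 ± 43.2 and 98.0 ± 47.9, for D3TA and WT (SD, n = 3 each), both with overlapping groups.

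Rad51d (ENSMUSG00000018841, chromosome 11, 82876434 to 82890614) lay in the opposite direction. It was at 259, 291 and 333 in D3TA and at 375, 353 and 453 in WT, so that each D3TA library was below each WT library. The log2 difference was -0.42 ± 0.30 (SE), a 1.34-fold lower level, with a limma adjusted p of 0.691. Under scaling by library size alone its groups overlapped, with a log2 difference of -0.33. Rad51d and Xrcc2 encode neighbours in one paralog complex, and Xrcc2 had a log2 difference of 0.62 ± 0.51 (SE).

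Of the 5 end resection genes, 3 had each D3TA library above each WT library, against 8.18% of genes tested. These were Exo1, Dna2 and Rbbp8, and genes of the MRN complex had overlapping groups. Exo1 and Dna2 encode the nucleases that carry out long-range trimming, and Rbbp8 encodes CtIP, which starts the cut together with MRN. Dna2 was at 944, 426 and 249 in D3TA and at 207, 241 and 199 in WT, and Exo1 at 456, 230.3 and 219.6 against 117, 197 and 125. Rbbp8 was at 991, 596 and 567 against 307, 423 and 463. The lowest D3TA value exceeded the highest WT value in each of these 3 genes, with log2 differences of 1.11, 0.99 and 0.82. Nbn and Rad50, subunits of MRN, the sensor that first binds a break, overlapped between the groups. Nbn averaged 311 ± 58.8 in D3TA against 235 ± 65.3 in WT, and Rad50 375 ± 63.9 and 316 ± 118 (SD, n = 3 each). Mre11a, the nuclease subunit of MRN and not among the 34, also overlapped, with a log2 difference of 0.54.

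Products of 4 members take recombined molecules apart, and the median log2 difference of these genes was 0.85. Groups did not overlap for Eme1, and 8.18% of genes tested had D3TA above WT in this way, so 1 gene in 4 is no result about them. Eme1, the partner of the MUS81 nuclease, was at 323, 109 and 95.1 in D3TA and at 74.5, 63.8 and 35.8 in WT, with a log2 difference of 1.42 ± 0.56 (SE). Mus81 itself was at 449.9, 404 and 289 in D3TA and at 347, 154 and 551 in WT, so the groups overlapped for this subunit. Of the exonic bases of Eme1, 10.7% are shared with Lrrc59 and Mrpl27 on the opposite strand, and no strand-marking step is described for these libraries. Blm, the helicase that dissolves joined molecules, was at 966, 379 and 213 in D3TA and 206, 169 and 284 in WT, with D3TA-1 well above the rest. Slx4, the scaffold that gathers several nucleases, averaged 319 ± 117 and 198 ± 81.7 (SD, n = 3 each), with overlapping groups.

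The FANCD2-FANCI pair is the target that the Fanconi core complex marks with ubiquitin. Fancd2 (ENSMUSG00000034023, chromosome 6, 113531682 to 113597017) was at 509.8, 289.9 and 188 in D3TA and at 140.4, 90.7 and 84.1 in WT. The groups did not overlap, the level was 2.94-fold higher and the log2 difference was 1.56 ± 0.45 (SE), at an adjusted limma p of 0.294. Fanci was at 122, 43.4 and 89.9 in D3TA and at 66.9, 0 and 33.8 in WT, with overlapping groups. Its log2 difference of 2.57 ± 1.33 (SE), the largest of the members, rests on the 0 of WT-2: without that library it was 0.70. The ratio of its group means was 2.54. WT-2 was at 0 for 80 tested genes that held at least 30 in both other WT libraries, while the same count was 0 to 4 for each of the other 5 libraries in its own group. Of the exonic bases of Fanci, 15.9% are shared with Polg.

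The 8 genes of the core complex had a median log2 difference of 0.47. For 1 of them, Fancm, each D3TA library lay above each WT library, a share near the 8.18% of genes tested. Fancm (ENSMUSG00000055884, chromosome 12, 65075603 to 65132058), the DNA translocase that anchors the complex at the lesion, was at 226, 181 and 143 in D3TA and at 92.7, 56.0 and 60.9 in WT, a 2.62-fold higher level. Fancl, the ubiquitin ligase subunit, averaged 299.8 ± 62.1 and 270.4 ± 91.1, and its log2 difference was 0.18 ± 0.36 (SE). Fance, which contacts FANCD2, was lower in D3TA on average, at 277 ± 53.5 against 344 ± 95.8 (SD, n = 3 each), with overlapping groups. Fancg, a scaffold subunit of the core, averaged 409 ± 144 and 248 ± 46.0, and D3TA-3 lay below WT-2. Fanca, the subunit most often mutated in the human disease, reached 493 in D3TA-1, but D3TA-3 at 137 was below WT-1 at 184 and WT-3 at 163. Fancb, the X-linked subunit, and the core subunits Fancc and Fancf had log2 differences of 0.43, 0.52 and 0.14 with overlapping groups. With D3TA-1 and WT-2 both left out, the log2 differences of Fanca, Fancc, Fancf and Fancl were below 0. These 4 genes share 10.5% (Fanca) to 18.6% (Fancc) of their exonic bases with other genes, which counting without strand cannot separate.

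ATR and CHK1 are the kinase pair that signals stalled replication. Chek1 (ENSMUSG00000032113), the checkpoint kinase that ATR activates, was at 426, 203 and 241 in D3TA and at 120.4, 119.8 and 140.1 in WT, with groups that did not overlap and a log2 difference of 1.12 ± 0.39 (SE). Atr (ENSMUSG00000032409) was at 246, 212 and 239 in D3TA and at 275, 217 and 182 in WT. Its log2 difference of 0.07 ± 0.34 (SE) was the nearest to 0 among the 34 genes. The Atr promoter (chr9:95857347-95857646, plus strand, build GRCm38.p6) is shown as that of the member nearest to 0, and it holds none of the motifs searched. The promoter of Fanci, the member with the largest log2 difference, holds none of them either and is not printed.
Atr: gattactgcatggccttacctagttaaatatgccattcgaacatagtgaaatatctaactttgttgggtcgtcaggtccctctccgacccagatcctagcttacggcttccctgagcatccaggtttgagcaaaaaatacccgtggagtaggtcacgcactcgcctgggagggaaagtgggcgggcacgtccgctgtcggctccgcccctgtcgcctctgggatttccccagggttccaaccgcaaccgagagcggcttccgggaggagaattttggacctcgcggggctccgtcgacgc

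**Figure D2:**
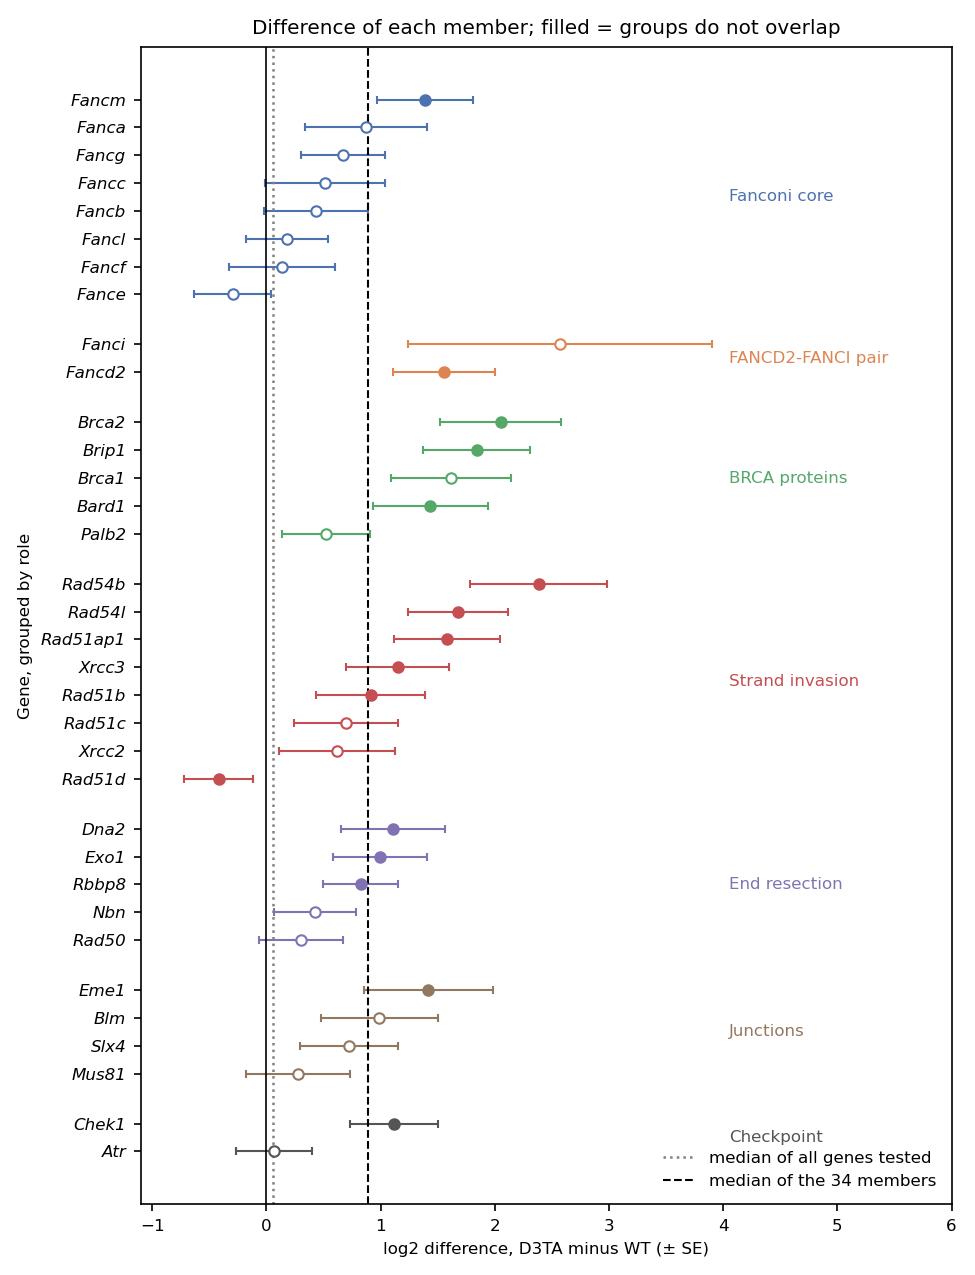
Log2 difference of D3TA from WT with limma's standard error for each of the 34 genes, grouped and coloured by role, with filled points where the groups did not overlap. The dashed line is the members' median of 0.89 and the dotted line the median of all genes tested, 0.06; Brca2, Brip1, Rad54b and Rad54l lie right of the dashed line, and Fance and Rad51d lie left of 0.

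Levels were compared between genes per kilobase of annotated exon, the union over a gene's transcripts, which lowers the value of genes with long unused exons. In WT spleens the mean level ranged from 3.75 normalized counts per kb (Rad54b) to 108 (Fance), a 28.7-fold span, and in D3TA spleens from 9.85 (Atr) to 123 (Nbn), a 12.4-fold span. Fance, Rad51d, Mus81 and Nbn held the 4 highest WT levels, at 92.7 to 108 per kb. Their log2 differences ran from -0.42 to 0.43. The 4 lowest WT levels were those of Rad54b, Fanci, Brca2 and Fancm, at 3.75 to 6.69 per kb, with log2 differences of 1.39 to 2.57, of which that of Fanci rests on WT-2. Across the 34 genes, the Spearman correlation of the log2 difference was -0.61 with the WT level, -0.42 with the mean level over the 6 libraries and -0.22 with the D3TA level. The levels and the difference share values, and genes are not independent replicates.

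**Figure D3:**
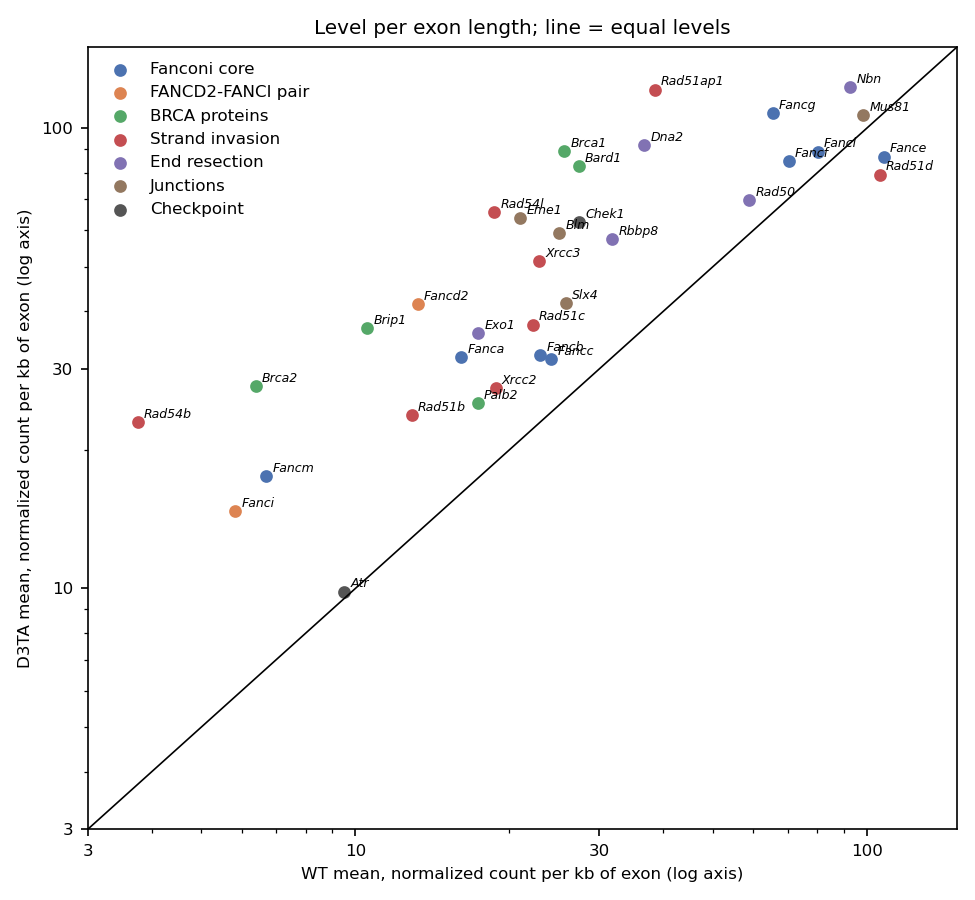
Mean normalized count per kb of exon in WT (horizontal) and D3TA (vertical) for the 34 genes, on log axes, coloured by role, with a line of equal levels. Genes with low WT levels such as Rad54b (3.75 and 23.0 per kb) and Brca2 (6.39 and 27.5) lie far above the line, and Rad51d (106 and 79.2) and Fance (108 and 86.7) lie below it.

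Short motifs tied to cell-cycle transcription were searched in the members' promoters. RefSeq promoters were found for 26 of the 34 genes. The E2F words TTTCCCGC, TTTCGCGC, TTTGCCGC and TTTGGCGC were found in 4 of the 26 (Fancg, Bard1, Brca2 and Rad51c), a share of 15.4%, against 4.46% of 11100 tested genes with a promoter and 55.6% of 18 replication genes. The CHR motif TTTGAA, found in promoters of many mitosis genes, was present in 3 (Bard1, Rad51b and Eme1), a share of 11.5%, against 14.9% of tested genes and 77.8% of 18 mitosis genes. CCAAT was present in 15 of the 26, or 57.7%, against 42.5% of tested genes. Among the 11 members with a promoter and D3TA above WT in each library, 2 held an E2F word, 3 a CHR and 6 a CCAAT, and among the other 15 these counts were 2, 0 and 9. No matches overlapped each other in these promoters, and a match to letters is a description, not a binding site.

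Lists of cell-cycle genes lay higher in D3TA too. Of 20 genes of mitosis, all 20 lay above 0, against 54.5% of genes tested, at a median log2 difference of 1.45. At an unadjusted limma p under 0.05, all 20 were higher, against 6.08% of genes tested. Of the 20, 0 passed the adjusted threshold, and their summed normalized counts were 20371 to 84907 in D3TA and 12402 to 14671 in WT. Bub1, a spindle checkpoint kinase, averaged 709 ± 322 and 208 ± 46.3 (SD, n = 3 each). Of 23 DNA replication genes, all 23 lay above 0 at a median of 0.96, and 13 were higher at an unadjusted limma p under 0.05. The shares over genes tested were again 54.5% and 6.08%. Of the 23, 0 passed the adjusted threshold, with sums of 31108 to 81841 in D3TA and 24590 to 26124 in WT. Pola1, the catalytic subunit of DNA polymerase alpha, averaged 619.98 ± 249 and 249.6 ± 43.9. The 34 repair genes summed to 15613, 9183 and 7143 in D3TA and to 5918, 5280.1 and 6225 in WT.

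The repair sum was also taken relative to these lists. The ratio of the repair sum to the replication sum was 0.219 ± 0.0248 in D3TA against 0.229 ± 0.0224 in WT (SD, n = 3 each), with overlapping groups. The ratio to the mitosis sum was 0.184, 0.274 and 0.351 in D3TA and 0.403, 0.426 and 0.488 in WT, so each D3TA library was below each WT library. These sums are led by the most abundant genes, and the part of cycling cells in the differences of single repair genes was not tested.

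**Figure D4:**
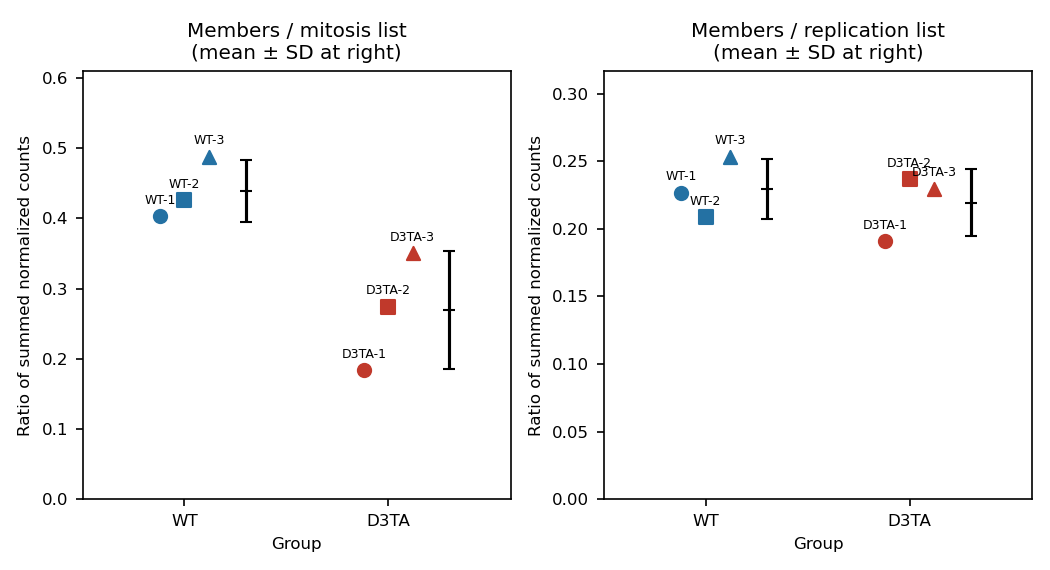
Summed normalized counts of the 34 repair genes divided by those of 20 mitosis genes (left) and of 23 replication genes (right), 1 point per library with mean ± SD beside each group. The left ratios are 0.184 to 0.351 in D3TA and 0.403 to 0.488 in WT, and the right ratios overlap, at 0.191 to 0.237 and 0.209 to 0.253.

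Summed marker levels of the cell types a spleen can hold are given beside these results. Of 15 neutrophil genes, 15 lay above 0, with sums of 84853 to 469494 in D3TA and 13420 to 29735 in WT, led by S100a9, and Mmp8 was at 0 in WT-2. Of 12 B cell genes, 0 lay above 0, with sums of 114938 to 185974 and 215184.0 to 460950, led by Ighm. Of 10 T cell genes, 0 lay above 0, with sums of 4908 to 15209 and 13853 to 20053, led by Cd3d. The 12 erythroid genes lay above 0, with overlapping sums of 300670.4 to 1157764 and 249865 to 1256224, led by Hba-a1. Plasma cell genes had 1 of 6 above 0, with sums of 30782 to 74620 and 87485 to 98947, led by Jchain. The 8 germinal centre B cell markers, led by Bcl6, had 5 above 0, with sums of 1048, 2398 and 5901 in D3TA and 2230, 2050.3 and 1708 in WT. Their log2 differences ran from -4.25 (Rgs13, at 0 in D3TA-1) to 1.47 (Mybl1). The part of cell composition in the repair gene differences was not tested.

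Beyond the 34, a wider list of the pathway lay above 0 as well. Of 56 other genes of recombination and the Fanconi pathway, 46 lay above 0 at a median log2 difference of 0.46, 13 had each D3TA library above each WT library and 1 the reverse, against 8.18% and 6.84% of genes tested. At an unadjusted limma p under 0.05, 11 were higher and 0 lower, against 6.08% and 3.83% of genes tested, and 0 passed the adjusted threshold. Clspn, the adaptor through which ATR activates CHK1, was at 1201, 489 and 368 in D3TA and at 223, 212 and 100.5 in WT. Polq, the polymerase of an error-prone alternative to recombination, was at 671, 216 and 120.2 in D3TA and 97.4, 78.3 and 48.3 in WT. Gen1, a nuclease that cuts joined molecules, Mcm8, a helicase subunit of recombination, and Rfwd3, a ubiquitin ligase that acts on RPA, had log2 differences of 1.44, 1.41 and 1.11, with groups that did not overlap.

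Other repair pathways lay closer to the median of all genes. Of 11 genes of non-homologous end joining, which seals breaks without a template, 8 lay above 0 at a median of 0.21, and Rif1 had the smallest p, with a log2 difference of 0.68. Mismatch repair had 6 of 7 above 0 at a median of 0.11, with Msh3 at 0.62. Base excision repair had 8 of 17 above 0 at a median of -0.03. Neil3, a DNA glycosylase that also acts on crosslinks, had the smallest limma p in that list. It was at 1018, 761 and 149.5 in D3TA and 127, 122.0 and 168 in WT, so its groups overlapped. Nucleotide excision repair had 11 of 17 above 0 at a median of 0.08, with Cetn2 at -0.54. No gene of these 4 lists passed the adjusted threshold in limma. At an unadjusted limma p under 0.05, 1 was higher, Neil3, against 6.08% of genes tested. The difference between the lists was not tested.

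**Figure D5:**
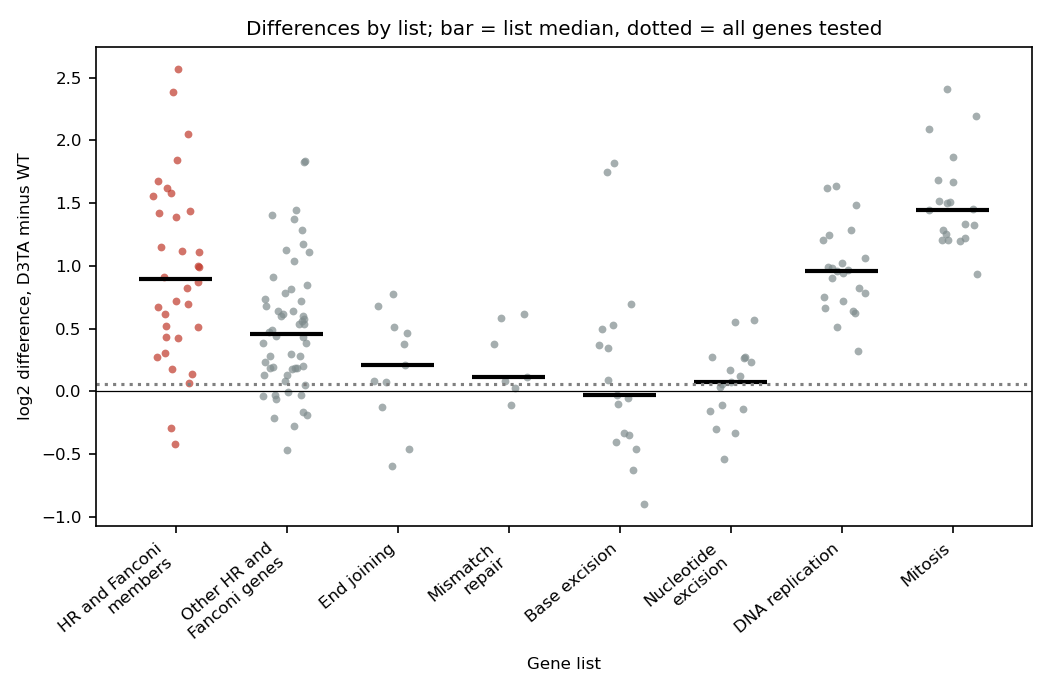
Log2 difference of D3TA from WT for each gene in 8 lists, with a bar at each list's median and a dotted line at the median of all genes tested. The bars stand at 0.89 for the 34 repair genes, 0.46 for other recombination and Fanconi genes, -0.03 to 0.21 for the 4 other repair lists, 0.96 for replication and 1.45 for mitosis.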

How the data were processed

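The 6 libraries, 3 D3TA and 3 WT, were grouped by their titles. Per the labels, poly-T beads captured messenger RNA, random hexamers primed its copying, and strand was not marked in any step described. Per the submitters' processing notes, CASAVA, FastQC, Trim Galore, HISAT2 and DESeq2 were used with mm10; versions, read counter and annotation are not given in the sources used here. The deposited values, although titled raw counts, are a normalized signal. Each is a read count that the authors divided by the library's size factor, shown by the values themselves: 100% of 149436 values were whole multiples of 1 step per library within 0.001. Symbols and coordinates came from GENCODE M21 (GRCm38), which held 24895 of 24906 identifiers.

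The 15564 genes reaching 10 normalized counts in 3 or more libraries entered limma 3.58.1 (trend, robust) on log2 values with a pseudocount of 1, with genotype as the factor, and adjusted by Benjamini-Hochberg at 0.05, 2-sided. P-values set the difference between groups against the spread between these mice, which limma moderates across genes. Each library is 1 mouse per the labels and counts as 1 replicate; in a check for repeated deposits of one library, no pair within a group agreed within counting noise. Alternatives were other scalings, pseudocounts and filters, libraries left out and a block for replicate number. Further ones were yes-or-no terms for a hemoglobin share over 5% and for Y-linked reads. On recovered reads, edgeR 4.0.16, limma-voom and DESeq2 1.42.0 were run (R 4.3.3). The test code was run on simulated counts with known fold changes, which does not measure power or false calls in these data. Limits set by read number cover counting error only. The members, lists and tests were chosen with earlier results of these data known. Every member could be named; of the other recombination genes the 6 with the smallest p, of each other repair or cell cycle list the 1 with the smallest p, and of each cell type list the most abundant gene; 1 gene so chosen is not reported here. Mre11a, Rgs13, Mybl1, Mmp8 and the markers checked in the libraries (Ms4a1, Cd3e) were named after their values were seen. Promoters came from RefSeq (GRCm38.p6); of the 5 that the rule chose, Fanci, with no motif match, is not printed.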

Additional observations from a re-analysis of the deposited data

How the results depend on the processing

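Of 680 values of single members under 20 alternatives, 653 kept their direction and their side of the threshold, 12 passed it (in DESeq2 or without D3TA-3) and 15, of 8 members, changed sign. Changed filters, the replicate block and the Y-linked term leave each log2 difference as in the main fit. Under these no sign could change, so the 653 include values whose direction was fixed in advance. With 1 library left out, values ranged from -0.282 to 0.471 for Fancf (lowest without D3TA-1), from -0.027 to 0.964 for Fancc, -0.016 to 0.435 for Fancl and -0.223 to 0.691 for Mus81 (lowest without WT-2), and from -0.013 to 0.56 for Rad50 and -0.074 to 0.224 for Atr (lowest without WT-3). With D3TA-1 and WT-2 both left out, the values were -0.04 for Fanca, -0.306 for Fancc, -0.267 for Fancf, -0.141 for Fancl, -0.032 for Xrcc2 and -0.355 for Mus81. With the hemoglobin term they were -0.068 for Fancf, -0.039 for Fancl and -0.026 for Mus81. The cause was not tested. The count of genes called, 0 in limma, was 44 without the filter, 11 with the hemoglobin term, 15 with the Y-linked term, 472 in DESeq2 and 0 to 306 when 1 library was left out, the 306 without D3TA-3. The count of members called, 0 in limma, was 7 in DESeq2 and 0 to 5 with 1 library left out. The members' median of 0.89 was 0.58 without both D3TA-1 and WT-2 and 0.51 to 1.09 with 1 library left out, lowest without D3TA-1. Scaling by library size alone moved the median of all genes to 0.14, and the members' median stood 0.83 above it, as in the main scaling. This agreement is nearly fixed in advance, since rescaling shifts the log2 difference of all genes almost equally. The members whose groups do not overlap numbered 16 (15 with D3TA above, against 8.18% of genes tested, and 1 below, against 6.84%), and 17 to 24 with 1 library left out. Leaving 1 library out raised the shares of genes tested to 10.9% to 18.1% above and 9.34% to 14.3% below. The 24, without D3TA-3, were 23 above and 1 below, against 18.1% and 14.3% of genes tested. A replicate block left 0 genes and 0 members called. Same-numbered libraries shared only a number: their deviations correlated at -0.057, -0.005 and -0.132. With 3 mice a group, the groups of Palb2 and of Rad50 overlapped, at log2 differences of 0.52 ± 0.38 and 0.30 ± 0.37 (SE).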
